A study of Homo sapiens with 12 samples.

Results

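The comparison described here is that of SKMEL-5, an established human melanoma cell line labelled as metastatic, grown in 1% oxygen (hypoxia) against the same line grown at atmospheric oxygen tension (normoxia, the reference named in the series' design text). It was chosen by its columns in the deposited table of raw counts: 2 hypoxic and 2 normoxic libraries, 4 of the 12 libraries of the series. The unit of description is the gene, and 19636 of the 60656 gene IDs in the table passed a filter on low counts. The other 8 libraries belong to the melanoma lines A2058 and A375, also in normoxia and 1% oxygen, and served here to estimate the spread and to show where SKMEL-5 differed. RNA was extracted with a column kit and polyadenylated RNA libraries were made from total RNA. The labels name no transgene or drug, and the sources used here do not give the hours spent in 1% oxygen. The design text calls the 2 libraries of each condition biological duplicates and says no more of how they were grown. The series' title sets the question of what hypoxia does to the sugar chains of metastatic melanoma and to properties linked to tumour growth.

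Cells read oxygen through the prolyl hydroxylases EGLN1 to EGLN3, which mark the alpha subunits of the hypoxia-inducible factors (HIF) for destruction by the VHL ubiquitin ligase when oxygen is present. When oxygen is scarce the alpha subunits, HIF1A and EPAS1 (HIF-2 alpha), persist, pair with ARNT and bind DNA at a short core motif near genes of glycolysis, angiogenesis, pH control, mitophagy and matrix building. In melanoma, cells of the pigment lineage, low oxygen is known for its links to a shift from pigmented to invasive behaviour.

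The 4 libraries held 41450962 and 47924592 counts in normoxia and 43212823 and 54202819 in hypoxia (replicates 1 and 2, in this order throughout), with 16887 to 17856 genes at 10 or more counts. A count of 0 allows up to 3 counts, 0.0553 to 0.0724 CPM (counts scaled to a common library size), which covers counting error only. Levels of single genes are CPM scaled by edgeR's TMM factors. The replicates were far apart: of 14365 genes at 1 CPM or more in either group, 1804 stood above hypoxia 2 in hypoxia 1 by 2-fold or more and 2214 below it by as much, while 1261 and 1094 separated normoxia 1 from normoxia 2. For comparison, the fitted hypoxia effect reached 2-fold upward in 1557 genes and downward in 795. Hypoxia 1 was the library that stood apart. Its Pearson's r with hypoxia 2, across genes on the log2 scale, was 0.951, against 0.978 between hypoxia 2 and normoxia 2 (genes are not replicates). Results are therefore also given without it.

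The label was checked against lineage genes. SOX10, the neural crest transcription factor that marks melanoma, stood at 1166 and 845 CPM in normoxia and 881 and 765 in hypoxia, and MITF, the master regulator of pigment cells, at 170.4 and 116 against 173 and 91.3. TYR and MLANA, a pigment enzyme and a melanosome antigen, had 0 counts in each of the 4 libraries, so these 2 defining pigment markers were not detected at this depth. Each of the 4 libraries also correlated more closely with the A375 library of the same condition and number (r = 0.976, 0.988, 0.977 and 0.990) than with its own replicate (0.973 in normoxia, 0.951 in hypoxia). Across genes, the log2 difference between hypoxia 1 and hypoxia 2 correlated at r = 0.80 with the same difference in A375, and what the equal numbers share was not tested. The name SKMEL-5 is used below as the labels give it. Markers of fibroblasts and blood cells were low. The 8 fibroblast markers summed to 10.3 and 13.3 CPM in normoxia and 21.5 and 20.5 in hypoxia. The 6 blood markers summed to 6.27 to 15.4 CPM, nearly all of it LYZ (6.20 to 15.2 CPM), with HBB at 0 counts. The 6 keratinocyte markers summed to more, 78.6 to 103 CPM. Nearly all of it was KRT10 (59.6 to 91.1 CPM) and KRT14 (2.48 to 18.9 CPM), with KRT1 and DSG3 at 0 counts.

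In 1% oxygen SKMEL-5 had higher levels of HIF targets, of glycolytic enzymes and of collagens and the enzymes that modify them, and lower levels of the mRNAs encoded by the mitochondrial genome. This sums up gene lists that were chosen with earlier results of these data known, so it is a description and not a test. No single gene passed edgeR's quasi-likelihood test after Benjamini-Hochberg adjustment (0 of 19636 genes, 0% called, smallest adjusted p 0.178 for PTPRB), so the values below describe these libraries and none is called a rise or a fall. At an unadjusted p under 0.05 there were 871 genes higher (4.44%) and 412 lower (2.1%) in hypoxia. DESeq2 called 95 genes higher (0.484%) and 25 lower (0.127%) at an adjusted p under 0.05, and limma-voom called 0 in either direction. The filter on low counts mattered: without it edgeR called 311 genes higher (0.832% of 37389) and 39 lower (0.104%), and all 350 had been tested, and not called, with it. In 3639 genes (18.5%) both hypoxic libraries lay above both normoxic ones, and in 3868 (19.7%) both lay below. The counts of list members above and below given later are to be read beside these shares. A gap of at least 2-fold between the nearest libraries of the groups was seen upward in 383 genes (1.95%) and downward in 179 (0.912%). Without hypoxia 1 the DESeq2 test called 16 genes higher (0.0769% of 20815) and 0 lower, and all 16 were among the 120 called with it.

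The 15 genes with the smallest p on the higher side, of at least 10 CPM in hypoxia and with no overlap between groups, were led by PTPRB, a receptor tyrosine phosphatase of blood vessel cells, at 1.03 and 1.68 CPM in normoxia and 16.5 and 15.8 in hypoxia. Both hypoxic libraries were alike and far above both normoxic ones, a log2 difference of 3.57 ± 0.46 (SE) or 11.9-fold. CACNA1B, the pore subunit of the N-type calcium channel of neurons, had 4 and 0 counts in normoxia and 899 and 1309 in hypoxia (21.4 and 23.5 CPM). It was thus near the detection limit in normoxia, and its fitted log2 difference of 8.93 ± 1.31 rests on those 4 counts. ITGB4, the integrin subunit that pairs with alpha-6 and binds laminin, stood at 1.21 and 2.35 CPM against 507 and 58.6. ITGB4 (ENSG00000132470.14) lies at chr17:75721328-75757818 and CACNA1B (ENSG00000148408.13) at chr9:137877789-138124624 of GRCh38. The hypoxic libraries of ITGB4 differed 8.65-fold from each other, and its log2 difference was 7.31 with both and 5.04 without hypoxia 1.

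**Figure D1:**
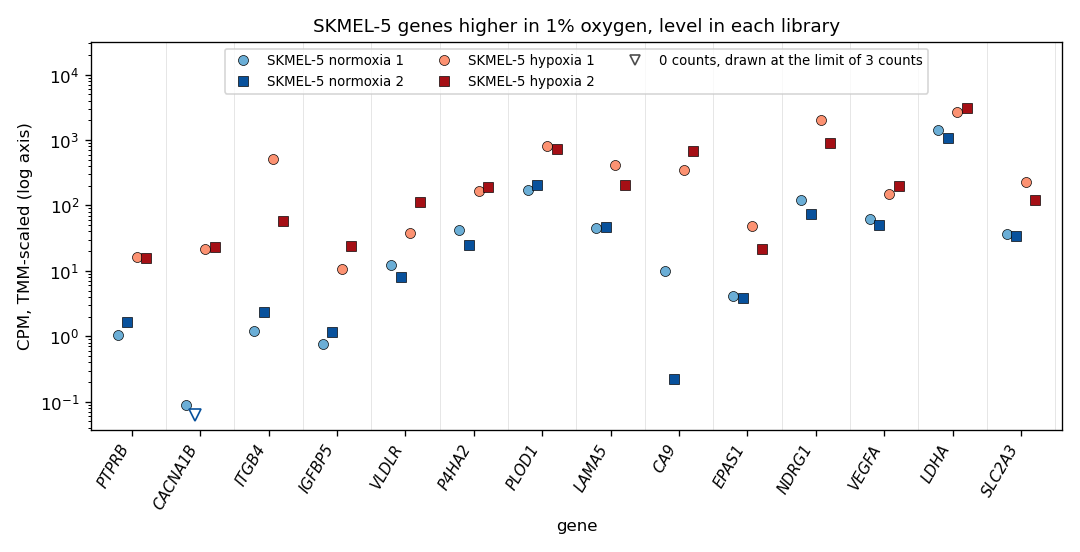
Level of 14 genes in each of the 4 SKMEL-5 libraries (CPM on a log axis, blue for normoxia, red for hypoxia, circles for replicate 1 and squares for replicate 2). In each gene both hypoxic points lie above both normoxic points, and the distance between replicates is small for PTPRB (16.5 and 15.8 CPM in hypoxia) and large for ITGB4 (507 and 58.6) and for CA9 in normoxia (9.81 and 0.223).

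IGFBP5, a secreted binder of insulin-like growth factors, stood at 0.762 and 1.17 CPM in normoxia and 10.8 and 24.0 in hypoxia, and VLDLR, a lipoprotein receptor, at 12.3 and 7.98 against 37.9 and 113. In both genes hypoxia 2 was the higher library, and without hypoxia 1 the log2 differences were 4.63 and 3.49 in place of 4.16 and 2.90. LAMA5, a laminin chain of basement membranes, stood at 44.8 and 47.6 CPM in normoxia against 411 and 208 in hypoxia, with the higher value in hypoxia 1. The Krüppel-like transcription factor KLF7 had 7.55 and 7.71 CPM against 43.7 and 33.9, and its normoxic replicates were nearly equal. PAM, which amidates secreted peptides, stood at 53.2 and 64.3 CPM in normoxia and 175 and 262 in hypoxia. The remaining members of the 15 were the prolyl hydroxylase subunit P4HA2 and the lysyl hydroxylase PLOD1 (both described with the matrix genes), FKBP9, a proline isomerase of the endoplasmic reticulum, EPS8L2, ARHGAP45, TMEM184A and BEND5, with log2 differences from 2.001 (FKBP9) to 4.19 (BEND5). BEND5 had 1.01 and 0.202 CPM in normoxia against 7.44 and 14.6 in hypoxia.

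Each of these 15 was also among the genes DESeq2 called higher from the same libraries. So were STC2, IGFBP3, ANGPTL4, UCA1, RNF165 and UNC13D, which were picked out after their values were seen. UNC13D, a priming factor for secretory granules, stood at 0.448 and 0.85 CPM in normoxia and 7.06 and 7.08 in hypoxia, with nearly equal hypoxic replicates. UCA1, a long noncoding RNA, stood at 0.65 and 0.425 CPM against 3.08 and 19.2, and here the hypoxic replicates were 6.16-fold apart (log2 4.37, and 5.16 without hypoxia 1).

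Among the HIF subunits and their sensors, EPAS1 showed the largest difference of the 9 tested genes, at 4.17 and 3.81 CPM in normoxia and 48.3 and 21.5 in hypoxia. The log2 difference was 3.13 ± 0.85, 8.75-fold, and 2.43 without hypoxia 1 (DESeq2 adjusted p = 0.0222). HIF1A stood at 167 and 283 CPM against 410.3 and 307. Its groups did not overlap, but the nearest libraries, normoxia 2 and hypoxia 2, were closer to each other than the normoxic replicates were. Of the sensors, EGLN1 was at 17.9 and 23.1 CPM in normoxia and 34.6 and 56.1 in hypoxia, with no overlap. EGLN3, a textbook HIF target, was low throughout, at 0.448 and 0.425 CPM against 0.167 and 0.826, and its groups overlapped. ARNT, the shared partner subunit, stood at 52.8 and 45.1 CPM against 102 and 45.6, and its log2 difference turned from 0.59 to -0.10 without hypoxia 1.

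The secreted and surface HIF targets were higher as a group: of 16 tested members of 18, 12 lay above normoxia in both hypoxic libraries and 0 below, 8 of them at least 2-fold apart, and the median log2 difference was 2.08 against 0 over all tested genes (2.49 without hypoxia 1, where all genes had a median of -0.02). Over the 15 members with a count in each of the 4 libraries the median was 2.17. CA9 (ENSG00000107159.13, chr9:35673856-35681159), the cell surface carbonic anhydrase that exports acid, stood at 9.81 and 0.223 CPM in normoxia and 352 and 667 in hypoxia. The hypoxic libraries were high and the normoxic replicates differed 36.8-fold, which gave the log2 difference of 6.67 an SE of 2.03. VEGFA, the angiogenic growth factor, had 62.3 and 50.5 CPM against 149 and 196, 3.06-fold. The lipase inhibitor ANGPTL4 stood at 18.4 and 9.68 CPM against 61.0 and 230.0, and the peptide hormone ADM at 13.3 and 15.8 against 173 and 96.7. These 2 genes were ordered in opposite ways between the hypoxic replicates, and without hypoxia 1 the log2 difference of ANGPTL4 went from 3.38 to 4.04. STC2, a secreted glycoprotein hormone, was at 4.03 and 6.68 CPM in normoxia and 22.2 and 54.4 in hypoxia, and IGFBP3 at 107 and 54.3 against 170.5 and 465. TF, the iron carrier transferrin, was a low gene whose hypoxic values (7.51 and 7.17 CPM) lay above normoxia (0.918 and 0.385).

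Of the 25 intracellular HIF targets tested, 23 lay above normoxia in both hypoxic libraries and 0 below, 11 at least 2-fold apart, with a median log2 difference of 1.48 (1.56 without hypoxia 1). NDRG1, a stress-induced differentiation gene, stood at 120.3 and 73.3 CPM in normoxia and 1997 and 905 in hypoxia, 14.99-fold (log2 3.91, and 3.23 without hypoxia 1). BHLHE40, a transcriptional repressor, was at 86.1 and 33.3 CPM against 697 and 249, with its top value in hypoxia 1 (log2 2.99, and 2.06 without it). PPFIA4, a liprin scaffold protein, stood at 15.6 and 5.85 CPM against 103 and 109.9. The mitophagy receptors BNIP3 and BNIP3L were higher in hypoxia, BNIP3 at 289 and 80.1 CPM in normoxia against 1259 and 759, and BNIP3L at 97.4 and 42.1 against 244 and 247. For BNIP3, PPFIA4 and BHLHE40 the normoxic replicates themselves were 3.61-fold, 2.66-fold and 2.58-fold apart, with normoxia 1 the higher. Over the whole list the median log2 ratio of normoxia 1 to normoxia 2 was 0.71, while that of hypoxia 1 to hypoxia 2 was -0.02.

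The core letters bound by HIF, ACGTG and the variant GCGTG, were looked for on both strands in the 250 bases before the RefSeq start (GRCh38.p14). Of 27305 RefSeq promoters 18.7% held ACGTG and 43.1% held either, and of the 12856 tested genes with a promoter there 22.8% and 55.5% did. ACGTG was found in 15 of 19 intracellular HIF targets with a promoter in the table (78.9%), in 5 of 12 secreted ones (41.7%) and in 8 of 21 glycolysis genes (38.1%). Either motif was found in 17 (89.5%), 8 (66.7%) and 12 (57.1%) of these. Among genes at least 2-fold apart that had a promoter, ACGTG was found in 28.9% of the 228 on the higher side and in 14.8% of the 81 on the lower side. With either motif these shares were 55.3% and 44.4%, the first of them next to the 55.5% of all tested genes. A match is a description of the letters and not a measured binding site. The last 150 bases before the start are shown for 5 members whose levels are given here and which were picked because they hold a match, as they stand on the gene's strand, with the motif or its reverse complement in capitals. CA9 holds 1 match, 18 bases before the start. BNIP3 holds 6, and LDHA 3. P4HA1 holds 1 at 86 bases, and CACNA1B holds 3. Other genes described here hold neither motif in the 250 bases, among them P4HA2, IGFBP5, LAMA5, FN1, TF, PDK1, PFKP and SLC2A1. The run CACGTG reads ACGTG on both strands and counts as 2. All starts here are those of RefSeq. The GENCODE positions of CA9, BNIP3 and P4HA1 begin within the stretches shown, so part of each of these stretches lies inside the GENCODE gene. The stretches lie at chr9:35673778-35673927 (CA9, plus strand), chr10:131981924-131982073 (BNIP3, minus strand), chr11:18394413-18394562 (LDHA, plus strand), chr10:73096867-73097016 (P4HA1, minus strand) and chr9:137877632-137877781 (CACNA1B, plus strand).
CA9: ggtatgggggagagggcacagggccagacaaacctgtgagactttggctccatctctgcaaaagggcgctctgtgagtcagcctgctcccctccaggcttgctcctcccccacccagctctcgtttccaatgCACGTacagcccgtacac
BNIP3: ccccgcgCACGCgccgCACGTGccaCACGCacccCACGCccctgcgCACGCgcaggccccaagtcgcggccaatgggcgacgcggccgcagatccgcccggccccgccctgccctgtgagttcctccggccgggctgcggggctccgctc
LDHA: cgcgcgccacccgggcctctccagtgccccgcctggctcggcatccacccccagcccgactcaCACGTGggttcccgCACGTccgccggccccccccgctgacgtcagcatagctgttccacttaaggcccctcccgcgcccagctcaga
P4HA1: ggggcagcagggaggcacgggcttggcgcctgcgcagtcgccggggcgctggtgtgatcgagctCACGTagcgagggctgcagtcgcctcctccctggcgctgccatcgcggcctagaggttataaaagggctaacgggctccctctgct
CACNA1B: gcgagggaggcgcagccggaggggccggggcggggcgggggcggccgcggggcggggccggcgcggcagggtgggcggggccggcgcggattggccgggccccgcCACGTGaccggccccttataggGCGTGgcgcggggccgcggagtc

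Glycolysis and glucose transport showed the same direction: 17 of 24 tested members lay above normoxia in both hypoxic libraries and 1 below, with a median log2 difference of 1.21 (1.13 without hypoxia 1). The glucose transporter SLC2A3 stood at 36.7 and 34.0 CPM in normoxia and 225 and 121 in hypoxia. PFKL and PFKP, subunits of phosphofructokinase, the committed step of glycolysis, were at 70.4 and 75.2 against 266 and 195 CPM, and at 219.8 and 202 against 618 and 493. LDHA, which turns pyruvate into lactate, stood at 1423 and 1082 CPM against 2721 and 3055, 2.31-fold. PGK1, an ATP-making step, was at 787 and 574 CPM against 1724 and 2602. In these 5 genes every hypoxic library lay above every normoxic one. GAPDH and ALDOA were different: GAPDH stood at 8805 and 7609 CPM against 40276 and 12872, and ALDOA at 146 and 138 against 1345 and 271, so that hypoxia 1 held most of the difference (log2 2.51 for ALDOA and 1.70 for GAPDH, 0.94 and 0.65 without that library). SLC2A1, the other main glucose transporter, was at 167 and 292 CPM against 386 and 622.

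Glycogen genes showed the same direction in 6 of 12 tested members and the opposite in 1, median 0.42 (0.63 over the 11 with a count in each library). PGM1, which links glucose 1-phosphate and 6-phosphate, stood at 98.5 and 75.7 CPM in normoxia and 197 and 232 in hypoxia. GBE1, the branching enzyme, was at 67.7 and 56.0 CPM against 207 and 197, with close replicates in both conditions. Of the 14 genes of the pyruvate dehydrogenase complex and its kinases, 3 lay above and 4 below, median -0.22. PDK1, the kinase that shuts the complex down, stood at 38.5 and 13.7 CPM against 66.0 and 107, 3.32-fold, while the E3 subunit DLD stood at 96.3 and 103 against 49.7 and 78.6.

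The mitochondrial genome encodes 13 mRNAs, all for core proteins of oxidative phosphorylation, and most of them were lower in hypoxic SKMEL-5. Of the 13, 11 lay below normoxia in both hypoxic libraries and 0 above, 8 of them at least 2-fold apart, against 19.7% and 0.912% of all genes, with a median log2 difference of -2.05 (-1.92 without hypoxia 1). MT-ND6 (ENSG00000198695.2, chrM:14149-14673), the only mRNA of the light strand, stood at 125 and 90.8 CPM in normoxia and 7.34 and 18.7 in hypoxia, a log2 difference of -3.05 ± 0.61. MT-ND2, a complex I subunit, had 3302 and 1928 CPM against 400.0 and 479.8. MT-ATP6, an ATP synthase subunit, had 3995 and 1913 CPM against 344 and 689. Cytochrome b, MT-CYB, was at 4398 and 2243 CPM against 486 and 964, and the cytochrome oxidase subunit MT-CO3 at 6939 and 3129.9 against 866 and 1324. In all of these genes normoxia 1 was the highest library. The 2 mRNAs whose groups overlapped were MT-ND4 (8629 and 3701 CPM against 4622 and 2062) and MT-ND5 (3203 and 1432 against 1728 and 939.6). The log2 difference of MT-ND4 was -0.88, and -1.58 without hypoxia 1. DESeq2 called 6 of the 13 lower and edgeR 0, with 8 at an unadjusted p under 0.05. In bulk RNA, fewer cells holding a transcript and less of it per cell cannot be told apart.

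**Figure D2:**
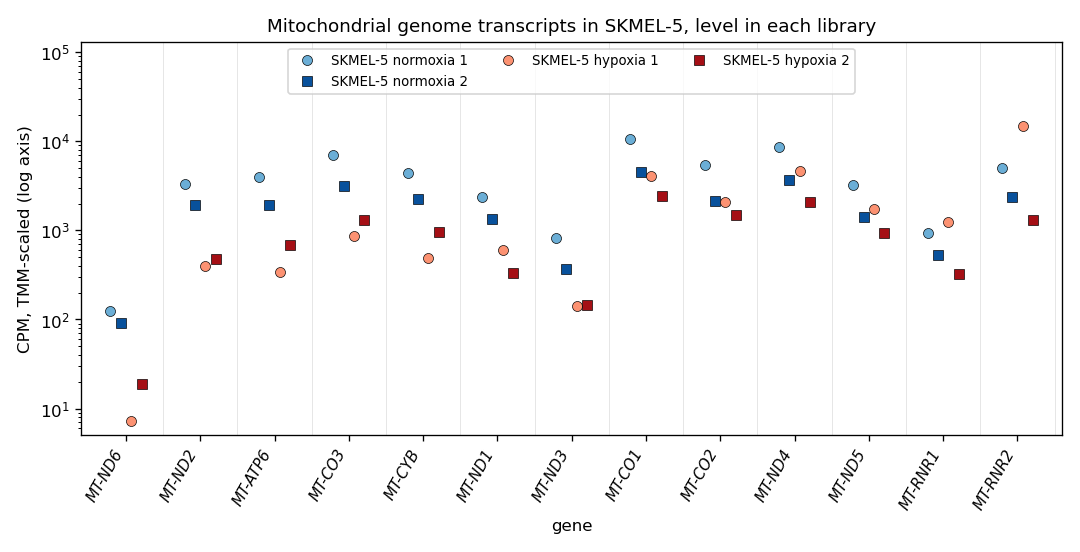
Level of 11 mRNAs and the 2 ribosomal RNAs of the mitochondrial genome in each SKMEL-5 library (CPM on a log axis, blue for normoxia, red for hypoxia). The hypoxic points of MT-ND6 (7.34 and 18.7 CPM) lie below the normoxic ones (125 and 90.8), while for MT-RNR2 hypoxia 1 (14839.5) is the highest point and hypoxia 2 (1310.4) the lowest.

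The 2 ribosomal RNAs of the same genome did not follow the mRNAs in hypoxia 1. MT-RNR2, the large subunit RNA, stood at 5015 and 2373 CPM in normoxia and 14839.5 and 1310.4 in hypoxia, an 11.3-fold gap between hypoxic replicates. Its log2 difference was 1.13 ± 1.33 with both hypoxic libraries and -1.49 without hypoxia 1, and MT-RNR1 likewise went from 0.09 to -1.17. Of 11 mitochondrial tRNAs tested, 10 lay below normoxia in both hypoxic libraries, median -2.80. The libraries were of polyadenylated RNA, and whether these counts come from tRNAs or from reads of neighbouring mRNAs was not tested. MTND2P28 and MTATP6P1 are nuclear copies of MT-ND2 and MT-ATP6, and reads could have been split between copy and source. MTND2P28 stood at 115 and 68.7 CPM against 14.1 and 17.1. All genes of the mitochondrial genome together took 6.31 and 2.79% of counts in normoxia and 3.13 and 1.35% in hypoxia, a pair of ranges that overlapped.

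The nuclear genes of the same complexes had smaller differences. Of 40 tested respiratory chain genes 13 lay below and 2 above, with a median of -0.42 (-0.33 without hypoxia 1), where 19.7% of all genes lay below. ATP5MC1, the c subunit of the ATP synthase rotor, stood at 138 and 67.3 CPM in normoxia and 18.7 and 47.1 in hypoxia. Cytochrome c, CYCS, was at 214 and 198 CPM against 77.6 and 139.8. NDUFAF8, a complex I assembly factor outside that list, was among the 15 genes with the smallest p on the lower side, at 64.5 and 52.8 CPM against 15.2 and 24.5. The TCA cycle had 1 of 20 genes above and 8 below, median -0.28, with SUCLG2, a succinate-CoA ligase subunit, as the 1 above (56.3 and 74.8 CPM against 178 and 107). Factors that transcribe and stabilise mitochondrial RNA had 13 of 22 below and 2 above, median -0.64, which moved to -0.23 without hypoxia 1. TFAM, which packages mitochondrial DNA, stood at 53.6 and 73.7 CPM against 21.9 and 43.9.

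Genes of the matrix and of its processing were higher. Of 26 collagen and matrix genes 17 lay above normoxia in both hypoxic libraries and 1 below, median 0.82, and of 17 collagen hydroxylases and lysyl oxidases 9 lay above and 0 below, median 0.76 (0.89 without hypoxia 1 for each list). FN1, the cell-binding matrix protein fibronectin, stood at 32.5 and 59.2 CPM in normoxia and 1494 and 441 in hypoxia, 21.1-fold, with the top value in hypoxia 1 (log2 4.40, and 3.27 without it). COL5A1, a fibril collagen chain, was at 4.52 and 6.80 CPM against 48.1 and 42.0. The gelatinase MMP2 was at 102 and 157 CPM against 539.6 and 279. Among the enzymes, which need oxygen to hydroxylate collagen, P4HA2 stood at 42.4 and 24.8 CPM against 168 and 189 and P4HA1 at 60.3 and 38.2 against 422 and 197. The log2 difference of P4HA1 was 2.65, and 2.004 without hypoxia 1. PLOD1 stood at 169 and 203 CPM against 801 and 725, 4.10-fold, with replicates of a condition closer to each other than to the other condition. LOXL2, which crosslinks collagen, was at 35.4 and 156 CPM against 387 and 521. Of 20 integrins and cadherins 7 lay above and 0 below. Their median of 0.72 went to 0.99 without hypoxia 1 and to -0.06 without hypoxia 2. The fibroblast marker sums given above were also higher in hypoxia, and their part in these matrix values was not tested. Of the 8 markers, PDGFRB made up the largest part (5.47 and 6.82 CPM in normoxia, 11.4 and 10.2 in hypoxia). PDGFRA stood at 1.03 and 1.76 CPM against 2.10 and 4.15, LUM at 0.694 and 1.70 against 1.65 and 3.25, and COL1A1 at 1.55 and 1.42 against 5.72 and 1.62. DCN overlapped between the groups, COL1A2 had 3 and 13 counts against 0 and 0, and COL3A1 and THY1 had at most 6 counts in any library.

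The 15 genes with the smallest p on the lower side, of at least 10 CPM in normoxia, held 5 of the mitochondrial mRNAs, the 2 nuclear copies, NDUFAF8 and 7 others. DANCR, a long noncoding RNA that hosts small nucleolar RNAs, stood at 73.1 and 64.6 CPM in normoxia and 25.5 and 24.0 in hypoxia, a log2 difference of -1.48 ± 0.29 with close replicates on both sides. SPHK1, which makes sphingosine 1-phosphate, was at 17.8 and 14.7 CPM against 5.68 and 5.24. WWC1, a Hippo pathway scaffold, was at 8.71 and 11.6 CPM against 3.10 and 2.32. In these 3 genes the hypoxic replicates were within a narrow range below normoxia. FST, the activin-binding protein follistatin, stood at 429 and 255 CPM against 43.5 and 116, with wider replicates. NOP16, a ribosome assembly factor, LPXN and PITHD1 made up the rest, with log2 differences of -1.22, -1.72 and -1.34.

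Of the genes that build, carry or bind sugar chains, the median log2 difference of a list lay between -0.03 (sialyltransferases and sialic acid genes) and 0.70 (galectins). Of 19 proteoglycan core proteins 7 lay above normoxia in both hypoxic libraries and 0 below, median 0.57 (0.63 without hypoxia 1). AGRN (ENSG00000188157.15, chr1:1020123-1056118), the heparan sulphate proteoglycan agrin of basement membranes, stood at 66.8 and 134 CPM in normoxia and 747 and 408 in hypoxia, 5.74-fold. CSPG4, the melanoma-associated chondroitin sulphate proteoglycan, was at 336 and 563 CPM against 1267 and 1245. Perlecan, HSPG2, was at 75.1 and 164 CPM against 569.9 and 279.8 (log2 1.83, and 1.23 without hypoxia 1). DESeq2 called AGRN (adjusted p = 0.00862) and CSPG4 (adjusted p = 0.0123) but not HSPG2 (adjusted p = 0.191).

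**Figure D3:**
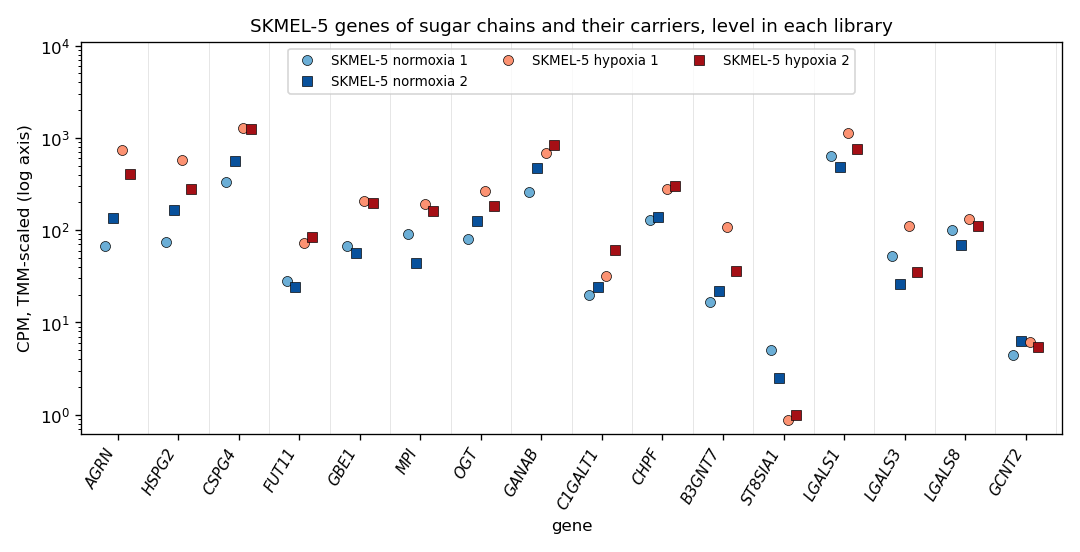
Level of 16 genes of sugar chains, their carriers and their binders in each SKMEL-5 library (CPM on a log axis, blue for normoxia, red for hypoxia). AGRN, CSPG4, FUT11 and GBE1 show both hypoxic points above both normoxic points, ST8SIA1 shows both below (0.882 and 0.988 CPM against 4.97 and 2.51), and the points of GCNT2 and LGALS3 overlap.

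FUT11 (ENSG00000196968.11, chr10:73772291-73780251), of the fucosyltransferase family, stood at 28.5 and 24.2 CPM in normoxia and 73.0 and 85.1 in hypoxia, 2.999-fold, with close replicates. It was 1 of 4 genes above against 4 below among the 15 tested fucosylation genes of 20 listed, whose median was 0.06. POFUT2, which puts fucose on thrombospondin repeats, was at 17.9 and 20.0 CPM against 71.1 and 28.6, and its log2 difference of 1.40 went to 0.60 without hypoxia 1. Among 26 tested of 28 sialyltransferases and sialic acid genes 3 lay above and 5 below, median -0.03. ST8SIA1, the GD3 ganglioside synthase, stood at 4.97 and 2.51 CPM in normoxia and 0.882 and 0.988 in hypoxia, a log2 difference of -1.995 ± 0.55 (DESeq2 adjusted p = 0.0457). ST6GALNAC2 went the other way at low levels, 0.381 and 0.101 CPM against 2.65 and 0.862 (log2 2.86, and 1.84 without hypoxia 1).

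For N-glycans, 8 of 34 genes lay above (23.5%) and 3 below (8.82%), median 0.22, where 18.5% and 19.7% of all genes did. GANAB, the glucosidase II subunit that trims new N-glycans, was at 259.9 and 471 CPM against 689 and 828. MAN1B1, a mannosidase of the early secretory pathway, was at 36.7 and 51.3 CPM against 74.3 and 85.9. Of the sugar nucleotide and hexosamine genes 9 of 24 lay above and 5 below, median 0.18. MPI, which links fructose and mannose phosphates, stood at 91.6 and 44.6 CPM against 194 and 160.2, and OGT, which puts single GlcNAc residues on nuclear and cytosolic proteins, at 79.7 and 125 against 264 and 181. C1GALT1, which makes the core 1 O-glycan, was at 20.0 and 24.1 CPM against 31.6 and 61.1. O-GalNAc genes had 3 of 16 above (18.75%, where 18.5% of all genes lay above) and 0 below. CHPF, a chondroitin polymerising factor, stood at 130.2 and 139 CPM against 282 and 301. Its list of 38 glycosaminoglycan genes had 6 above (15.8%) and 3 below (7.89%), under the 18.5% and 19.7% of all genes.

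Poly-LacNAc genes had 5 of 13 above and 0 below, median 0.23. B3GNT7, an extension enzyme, was at 16.8 and 22.2 CPM against 108 and 36.3 (log2 1.89, and 0.90 without hypoxia 1), while GCNT2, the I-branching enzyme, was flat at 4.48 and 6.34 against 6.10 and 5.41. Of 6 galectins tested of 9 listed, which bind galactosides, 4 lay above and 0 below, median 0.70 (0.55 without hypoxia 1). Over the 5 with a count in each of the 4 libraries the median was 0.63. LGALS12 had 0 and 1 counts in normoxia and 4 and 2 in hypoxia, near the detection limit. LGALS1 stood at 629 and 484 CPM against 1134 and 762 and LGALS8 at 101 and 68.7 against 133 and 112. LGALS3 was at 52.6 and 26.3 CPM against 109.9 and 35.4, overlapping, and its log2 difference went from 0.88 to -0.15 without hypoxia 1. Among 20 glycosphingolipid genes 6 lay above and 3 below, with HEXA, a lysosomal hexosaminidase subunit, at 26.8 and 24.7 CPM against 50.8 and 48.6.

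In some lists the difference between conditions lay mainly in hypoxia 1. The clock list had 9 of 17 genes above and 0 below with a median log2 difference of 1.82, which went to 0.40 without hypoxia 1. DBP, an output gene of the clock, stood at 14.8 and 5.20 CPM in normoxia and 129 and 11.2 in hypoxia, so that hypoxia 2 lay between the normoxic libraries. PER1 was at 36.4 and 26.0 CPM against 194 and 39.5, and the clock repressor NR1D1 at 24.2 and 25.5 against 356 and 41.3. Without hypoxia 1 the log2 differences of DBP, PER1 and NR1D1 went from 2.81, 1.90 and 2.9995 to 0.17, 0.34 and 0.74. Other members kept a difference without that library. The repressor BHLHE41 stood at 10.7 and 2.87 CPM against 19.7 and 40.4, higher in hypoxia 2, and its log2 difference went from 2.15 to 2.58. BHLHE40 and RORA are also on the HIF target list: RORA stood at 6.61 and 2.15 CPM against 36.7 and 18.6, log2 2.09 without hypoxia 1. TXNIP, which restrains thioredoxin and glucose uptake, stood at 22.1 and 6.22 CPM against 1571 and 82.0, log2 5.87 with and 2.54 without hypoxia 1.

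**Figure D4:**
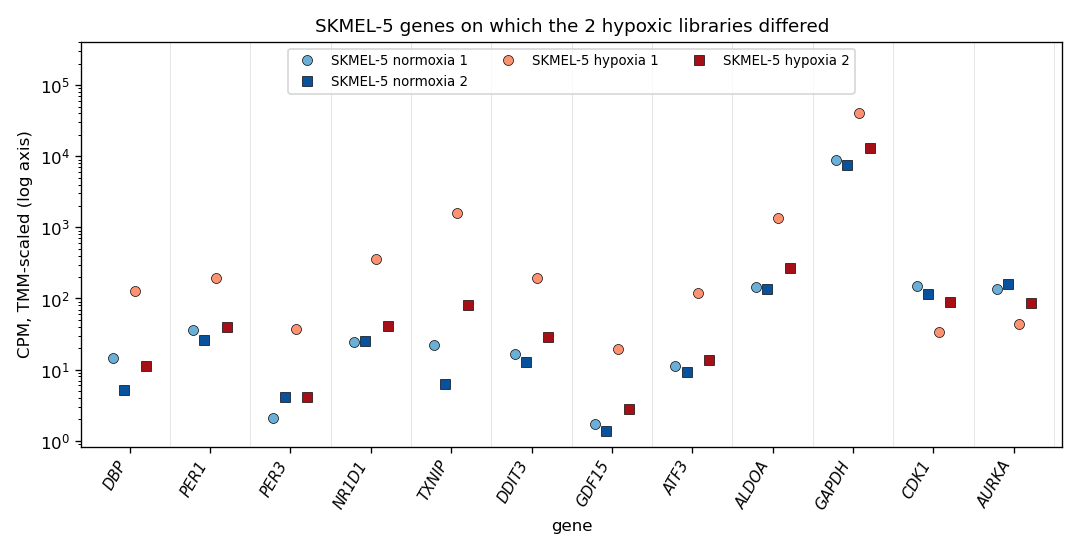
Level of 12 genes on which the 2 hypoxic SKMEL-5 libraries differed (CPM on a log axis, blue for normoxia, red for hypoxia, circles for replicate 1). Hypoxia 1 is the extreme point in each gene, for example 129 CPM for DBP and 33.4 for CDK1, where hypoxia 2 stands at 11.2 and 88.1.

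The list of unfolded protein and amino acid stress genes did not follow hypoxia 1: 10 of 24 lay above normoxia and 2 below, and the median of 0.53 was 0.61 without hypoxia 1 and 0.07 without hypoxia 2. Single members differed from the list. DDIT3, a pro-apoptotic factor of the unfolded protein response, stood at 16.5 and 12.7 CPM in normoxia and 192 and 28.3 in hypoxia, ATF3 at 11.2 and 9.15 against 119.7 and 13.7, and the cytokine GDF15, which stands on the p53 list, at 1.70 and 1.38 against 19.6 and 2.77. In these 3 genes hypoxia 1 was far above the other libraries, and without it the log2 differences went from 2.92, 2.71 and 2.86 to 0.96, 0.44 and 0.85. ASNS, the asparagine synthetase gene of the amino acid response, was even across the hypoxic replicates (0.694 and 1.09 CPM against 4.27 and 4.49). Of 34 cell cycle and DNA replication genes 16 lay below and 0 above, median -0.81, which went to -0.30 without hypoxia 1 and to -1.79 without hypoxia 2. AURKA, a mitotic kinase, stood at 136 and 162 CPM against 43.2 and 85.9, and CDK1, the kinase of mitotic entry, at 150.5 and 114 against 33.4 and 88.1. Homologous recombination and mismatch repair genes had 3 of 17 below (17.6%, where 19.7% of all genes lay below) and 0 above, and their median of -0.86 went to -0.09 without hypoxia 1.

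Heat shock genes lay below normoxia in 11 of 14 tested members and above in 0, median -1.08, and -0.70 without hypoxia 1. HSPA1A, the inducible HSP70, stood at 64.4 and 104 CPM in normoxia and 12.5 and 29.9 in hypoxia, and the mitochondrial co-chaperonin HSPE1 at 42.4 and 26.9 against 5.87 and 17.9. The log2 difference of HSPE1 was -1.54, and -0.95 without hypoxia 1. HSPA1A has a near-identical copy, HSPA1B, with which it may share reads. The 27 interferon genes had 7 below (25.9%, where 19.7% of all genes lay below) and 0 above. Their median was -0.54, and -0.64 without hypoxia 1. Cytosolic ribosomal protein genes were level, with 7 of 79 above, 4 below and a median of 0.03.

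**Figure D5:**
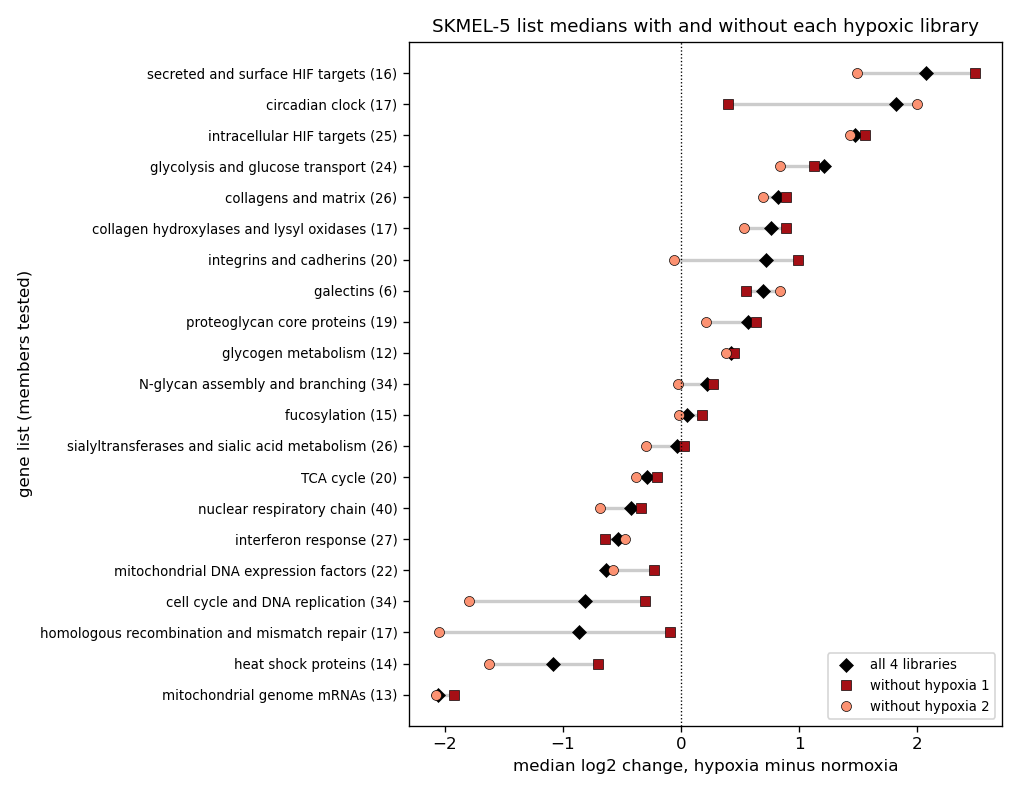
Median log2 difference between hypoxia and normoxia in SKMEL-5 for 21 gene lists, with all 4 libraries (black diamonds), without hypoxia 1 (dark squares) and without hypoxia 2 (pale circles). The medians of the intracellular HIF targets (1.48, 1.56 without hypoxia 1) and of the mitochondrial mRNAs (-2.05 and -1.92) hardly depend on the library left out, while those of the clock (1.82 and 0.40) and the cell cycle (-0.81 and -0.30) do.

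Lipid genes were led by SREBF2, the transcription factor of cholesterol synthesis, at 36.5 and 88.2 CPM in normoxia and 369 and 158 in hypoxia (log2 2.08, and 1.34 without hypoxia 1), and by the desaturase SCD at 87.0 and 314 against 953 and 800.3. HILPDA, a lipid droplet protein and HIF target, stood at 24.5 and 9.84 CPM against 118 and 61.9. Sterol genes as a list had 6 of 23 above (26.1%) and 5 below (21.7%), where 18.5% and 19.7% of all genes did. Their median of 0.33 went to -0.03 without hypoxia 1. Fatty acid and lipid droplet genes had 7 of 21 above and 1 below, median 0.37. Of 21 melanocytic genes 4 lay above and 3 below, median 0. DCT, a pigment enzyme, stood at 2.64 and 1.44 CPM against 0.143 and 0.216, both hypoxic libraries being low (-3.47 ± 0.93 on the log2 scale). The members next by p lay the other way. MLPH stood at 0.918 and 2.45 CPM against 8.99 and 4.20, and TYRP1 had 2 and 1 counts against 11 and 21. PMEL, at 0.560 and 0.223 CPM against 1.24 and 0.503, overlapped between the groups. AXL, a receptor kinase of dedifferentiated melanoma, was at 150.4 and 441 CPM against 335 and 794, with overlapping groups.

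The SKMEL-5 effect was set against that of each other line in the same edgeR fit. For SKMEL-5 minus A2058, 0 genes (0%) passed at an adjusted p under 0.05, 585 (2.98%) had an unadjusted p under 0.05, DESeq2 called 18 (0.0917%) and limma-voom 0. For SKMEL-5 minus A375, 0 genes passed, 161 (0.82%) had an unadjusted p under 0.05, and DESeq2 called 0 (0%), as did limma-voom. The genes named in the next sentences are among the 18, picked out after their values were seen. CDH13, a cadherin held to the membrane by a lipid anchor, stood at 55.9 and 59.5 CPM in normoxia and 101 and 112 in hypoxia, a log2 effect of 0.88 in SKMEL-5 against 3.30 in A2058 and 0.88 in A375 (DESeq2 adjusted p of the difference from A2058 3.69e-05). NDUFA4L2, a HIF-induced relative of a respiratory chain subunit, had effects of 1.74 in SKMEL-5, 7.40 in A2058 and 0.84 in A375. UNC13D stood at 3.44, -0.66 and 1.77 in the same order, and TMEM184A at 2.78, -0.45 and 1.32. For CACNA1B the effects were 8.93, 1.82 and 8.46, so that A375 stood beside SKMEL-5. The fits were also run without hypoxia 1, which leaves 1 hypoxic SKMEL-5 library, so only effect sizes are given. The log2 effect in SKMEL-5 was then 0.96 for CDH13, 2.825 for TMEM184A and 8.998 for CACNA1B, against 0.88, 2.78 and 8.93 with it. With 1 library in that group, these fits cannot decide whether the differences between lines hold without hypoxia 1.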

How the data were processed

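The authors deposited 1 table of raw read counts per gene for the 12 libraries, and all 12 columns were used (0 per-sample columns left out). Per the submitters' processing notes, reads passed through bcl2fastq 2.20, Trim Galore 0.6.1 and STAR 2.5.0a on GRCh38. How reads were counted (tool, strand, gene models) is not given in the sources used here. Overlapping genes, antisense genes and near-identical copies may therefore share reads. Gene positions come from GENCODE 29, which placed 58438 of the 60656 IDs.

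The counts were analysed with edgeR 4.0.16 (R 4.3.3): filterByExpr over the 6 groups of line and condition (minimum count 10), TMM scaling and 1 quasi-likelihood fit over the 12 libraries, which share the estimate of the spread, with Benjamini-Hochberg adjustment over all tested genes at 0.05. The contrast was SKMEL-5 hypoxia minus normoxia, and the same minus the effect in each other line. DESeq2 1.42.0 and limma 3.58.1 (voom), other filters and scalings, a replicate block and leaving out libraries were the alternatives. Scripts were tested on simulated data. P-values measure the spread between libraries, which may in part be technical. Separated groups (no overlap between 2 and 2 libraries) and list medians are descriptions. A precision limit for single libraries is the count of 3 that a 0 allows, for counting error only.

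The 47 gene lists and their members were chosen with earlier results of these data known. The naming rule took the 15 genes per direction with the smallest p (no gene being called). They come from genes of at least 10 CPM in the higher group whose libraries do not overlap. The rule also took the 3 per list with the smallest p and a fixed set of hypoxia, lineage and sugar genes. Not every gene taken from the lists is described, and PMVK, BAX, MDM2, CXCL8, IFI35, CXCL11 and IFI44L are among those left out. PMVK, a sterol gene, was lower in hypoxia (49.9 and 36.4 CPM against 14.7 and 23.4), unlike the members described under this rule. Outside this rule, and chosen after their values were seen, are ADM, ALDOA, ANGPTL4, GAPDH, IGFBP3, MT-CO3, MT-ND4, MT-ND5, NDUFA4L2, NR1D1, PER1, PGK1, RNF165, UCA1 and UNC13D. Promoters are those of RefSeq for GRCh38.p14.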

Additional observations from a re-analysis of the deposited data

How the results depend on the processing

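The number of SKMEL-5 genes called higher in hypoxia was 0 in the edgeR fit, 2 with the 4 SKMEL-5 libraries alone (CACNA1B and ITGB4), 95 with DESeq2, 16 with DESeq2 without hypoxia 1, 311 with no filter on low counts and 0 to 1 when each SKMEL-5 library was left out (ITGB4 without hypoxia 2). The number called lower was 0 in the edgeR fit, 25 with DESeq2 and 39 with no filter. For SKMEL-5 minus A2058 it was 18 with DESeq2 and 55 with no filter, and for SKMEL-5 minus A375 it was 2 with no filter. The cause of these differences was not tested. The remaining alternatives that kept all 4 SKMEL-5 libraries called 0 genes. With the replicate number as a block the count was 0 higher and 0 lower. The correlation of replicate differences between the conditions was 0.26, and with 2 pairs it does not show that the numbers pair the samples.

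Of the 118 named genes that were put through the settings, 110 kept their direction, and 8 had it turned in at least 1. The 110 do not measure stability, because many named genes were picked from these libraries for a small p or for groups without overlap. Where groups do not overlap, leaving out 1 library can hardly turn the direction. In each of the 8 the groups overlapped. The share over all tested genes is not given here. ARNT ranged from -0.10 to 1.05 with 1 library left out. It was -0.11 without 3 hypoxic libraries (SKMEL-5 hypoxia 1, A375 hypoxia 1 and A2058 hypoxia 2) and -0.11 in DESeq2 without hypoxia 1. Both settings leave out SKMEL-5 hypoxia 1, so they are not separate checks. LGALS3 ranged from -0.15 to 1.53 and was -0.16 and -0.17 in the same pair of settings, MT-RNR2 from -1.49 to 2.01 with -1.50 and -1.51, and GCNT2 from -0.095 to 0.36 with -0.000655 and -0.00569. MT-RNR1 ranged from -1.17 to 0.75, was -1.18 in both of those settings, -0.14 in limma-voom and -0.15 with the block. EGLN3 ranged from -1.37 to 0.92 and was -0.16 in limma-voom and -0.12 with the block. MITF ranged from -0.65 to 0.27 and SOX10 from -0.50 to 0.0065. Replicates of 41450962 to 54202819 counts differed by more than counting error. The median chi-square per gene was 17.4 in normoxia and 30.3 in hypoxia, on raw library totals without TMM scaling. What set this spread was not tested. Depth limited genes near the level of 3 counts, such as CACNA1B in normoxia.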
